A study of Mus musculus with 36 samples.

Results

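Forskolin, a plant diterpene, was applied at 50 µM to mouse epiblast stem cells. These pluripotent cells are derived from the post-implantation epiblast, and the label abbreviates them to EpiSC. The Forskolin arrays are those with the compound in their title, 3 of the 36 arrays of the series, 1 in each of 3 schedules. In the schedule RA 36 h the cells had 5 µM retinoic acid (RA) for 36 h and Forskolin for 24 h. In the schedule RA 24 h they had RA for 24 h and Forskolin for 36 h, and in the schedule without RA they had Mock for 36 h and Forskolin for 24 h. In what order RA and compound were given, or how far they overlapped, is not stated in the labels. The comparison arrays are the 27 arrays of the other 9 compounds, each with 1 array in each schedule under the same RA treatment and the same compound time: Rapamycin (100 nM), PF573228 (250 nM), Dorsomorphin dihydrochloride (2 µM), BAY 11-7082 (25 µM), BAPTA-AM (10 µM), Docetaxel (500 pM), Wortmannin (50 nM), Purmorphamine (2 µM) and SU5402 (2 µM). All cells were grown in medium conditioned by fibroblasts, with bFGF and Activin. The first 4 of these compounds shared a slide with Forskolin in every schedule and are called its slide mates here.

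Forskolin binds adenylyl cyclase and raises cyclic AMP (cAMP). Cyclic AMP activates protein kinase A (PKA) and the exchange factor Epac. PKA phosphorylates the transcription factor CREB, which binds the cAMP response element (CRE) near immediate-early, phosphodiesterase and secretory granule genes, and it restrains the Gli factors of the Hedgehog pathway. Many CREB targets respond within the first hours of a cAMP signal and then return.

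No gene was called higher or lower with Forskolin than with the other 9 compounds. The reference is other treated cells, so a response that they share with Forskolin would not show. Across the 16235 genes tested, limma with the schedule as a block and Benjamini-Hochberg adjustment gave 0 genes above and 0 below an adjusted p of 0.05, which is 0% of the genes. At an unadjusted p under 0.05 there were 328 genes on the higher and 228 on the lower side, 556 in all or 3.42%. Against the 12 arrays of the slide mates, with the slide as a block, limma again called 0 genes (0%), and 942 genes (5.8%) had an unadjusted p under 0.05. The lowest adjusted p was 0.0863 against the other 9 compounds, for Slc36a3, and 0.662 against the slide mates, for Ggt6.

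These zeros are bounded by the precision of the fit. The distance from a Forskolin difference to either end of its 95% interval had a median of 0.28 on the log2 scale over all genes, and 0.22 over the 9597 genes detected on all 30 compound arrays. The interval excluded a change of 1 on the log2 scale, either way, for 99.85% of the genes and a change of 1.5-fold for 89.4%. No fitted difference exceeded 1, and the largest was 0.776. No label says that arrays came from separate cultures, so the spread between single arrays in these intervals may be partly technical. The other compounds were pooled in the fit, so differences between them are also in that spread. Over the 6638 genes not detected on all 30 arrays the distance to the end of the interval was larger, with a median of 0.34. Undetected probes read near the floor of the normalised scale, where a fall in RNA can hardly show. For such genes the interval bounds the normalised intensity and not the RNA level.

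Forskolin had 0 genes called in this contrast, and the same contrast was made for each of the other 9 compounds in turn. Docetaxel, which stabilises microtubules, had 115 genes higher and 57 lower, 1.06% of the genes. The other 8 compounds had 0 genes called each. Forskolin had 556 genes at an unadjusted p under 0.05, and these 8 compounds had 534 to 894. Forskolin was the highest of the 10 compounds in all 3 schedules for 10 genes (0.0616%) and the lowest for 10 genes (0.0616%). For Docetaxel these counts were 119 and 75, and for the other 8 compounds they lay between 5 and 13 and between 3 and 16. Forskolin was thus at one end of the 10 compounds about as often as those 8 were.

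**Figure D1:**
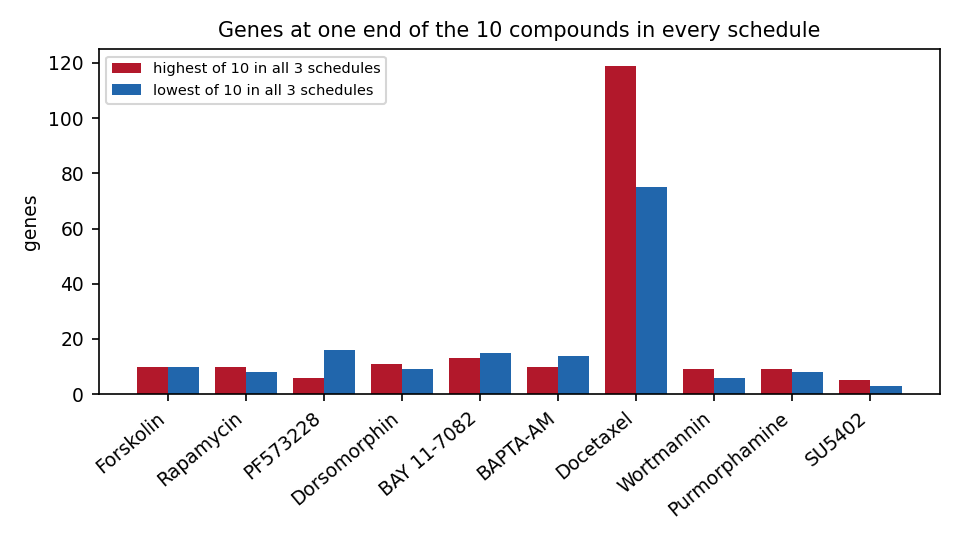
Number of genes (vertical axis, from 0) for which each compound gave the highest (red) or the lowest (blue) log2 intensity of the 10 compounds in all 3 schedules. Forskolin had 10 and 10 genes, Docetaxel 119 and 75, and the other compounds between 3 and 16.

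Within a schedule, the Forskolin array correlated with the arrays of the other compounds at a Pearson r between 0.985 and 0.994 across genes. Pairs of arrays among the other 9 compounds lay between 0.985 and 0.995. The differences of Forskolin from the mean of the other 9 compounds had SDs across genes of 0.255 with RA for 36 h, 0.279 with RA for 24 h and 0.234 without RA. Across genes these differences correlated between schedules at -0.16, -0.01 and -0.04, and genes are not independent replicates. The mean signal of the Forskolin arrays before normalisation lay between 389 and 562 units against 360 to 692.5 units for the other 9 compounds, and 39.2% to 40.6% of probes were detected against 37.4% to 43.1%.

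The CREB targets came first among the gene groups. Of 39 listed cAMP and CREB targets, 25 were tested, 12 were detected on fewer than 3 arrays and 2 had no probe with their name here. None of the 25 was called, where 0% of all genes were. At an unadjusted p under 0.05, 2 members were higher and 0 lower, Junb and Chgb, beside 3.42% of all genes in either direction. Each gene is represented here by its brightest probe. A dimmer probe of Ccn1 (0.26), of Cited2 (0.27) and of Crem (-0.50) also passed this unadjusted threshold, while the brightest probes of these genes did not. The median difference over the 25 was -0.03 on the log2 scale beside -0.0032 over all genes, with 11 differences above 0. The 95% interval excluded a change of 1 on the log2 scale for all 25 and a 1.5-fold change for 20. These are bounds on normalised intensity, and some members, such as Pck1 and Inhba, were detected on none of the Forskolin arrays. Among the 12 that were too dim to test are Nr4a1 and Nr4a3, orphan receptors of the immediate-early class, Ppargc1a, a coactivator of gluconeogenesis, and the neuropeptide genes Sst, Vip and Crh.

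3 tested targets hold the full CRE, TGACGTCA, in the RefSeq promoter window of 300 bases (GRCm38.p6). They are shown because they are the tested targets with the full palindrome in a window. Listed targets that were not tested, or that had no window, were not searched. The lines below give 60 bases around each site on the gene's own strand, with the CRE in capitals.
Chgb (chr2:132781544-132781603, plus strand): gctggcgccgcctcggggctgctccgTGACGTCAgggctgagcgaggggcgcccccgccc
Dusp1 (chr17:26508582-26508641, minus strand): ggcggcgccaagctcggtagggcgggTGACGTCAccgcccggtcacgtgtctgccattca
Scg2 (chr1:79440061-79440120, minus strand): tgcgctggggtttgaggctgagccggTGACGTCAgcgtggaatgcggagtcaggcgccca
The first base of the CRE lies 72 bases before the annotated start of Chgb, 143 before that of Dusp1 and 68 before that of Scg2. The CRE reads the same on both strands. Of the 20 tested targets with a window, 15% held a CRE and 70% the half-site TGACG on either strand, which a CRE also contains. Over the 9960 tested genes with a window these shares were 3.46% and 33.9%, and over all 27025 genes with a window 2.03% and 23%.

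Chgb, a protein of secretory granules, read 4.95 with Forskolin against 4.41 to 5.30 with the other 9 compounds on the log2 scale with RA for 36 h. It read 5.78 against 4.48 to 5.35 with RA for 24 h, and 4.76 against 4.40 to 4.86 without RA. Forskolin stood above all others in the RA 24 h schedule alone. The probe was detected on 1 of the 3 Forskolin arrays and 4 of the 27 others. The fitted difference was 0.44 (95% interval 0.12 to 0.76), with a limma adjusted p of 0.9999. Without the RA 24 h array of Forskolin it was 0.19. Dusp1, a phosphatase of MAP kinases, differed by 0.02 (-0.25 to 0.29), and Scg2, another granule protein, by -0.10 (-0.47 to 0.27). Scg2 was not detected on the Forskolin arrays with RA, so its interval bounds the normalised intensity and not the RNA level. Over the 345 tested genes with a CRE in a window the median difference was -0.0007, and over the 9615 without one it was -0.0005.

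Immediate-early genes gave values on both sides. Junb, a subunit of the AP-1 factor, read 7.85 with Forskolin against 7.24 to 7.97 with the other 9 compounds with RA for 36 h. It read 8.45 against 7.72 to 8.26 with RA for 24 h, and 7.92 against 7.50 to 7.92 without RA. Forskolin lay in the upper part of the range in each schedule and above it in RA 24 h. The fitted difference of Junb was 0.31 (0.08 to 0.54; limma adjusted p = 0.9999), and 0.29 (0.06 to 0.52) against the slide mates. Fos, the partner of Junb in AP-1, differed by 0.21 with RA for 36 h, -0.999 with RA for 24 h and 0.44 without RA, so its sign was not the same in the 3 schedules. Its fitted difference was -0.12 (-0.58 to 0.35), and 0.325 without the RA 24 h array of Forskolin. Egr1, a zinc finger factor, differed by 0.19 (-0.13 to 0.50), Fosb by 0.17 (-0.21 to 0.55) and Nr4a2, an orphan receptor, by -0.06 (-0.37 to 0.26). Of the Forskolin arrays, Nr4a2 was detected only on that with RA for 24 h, so its interval too bounds the normalised intensity.

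**Figure D2:**
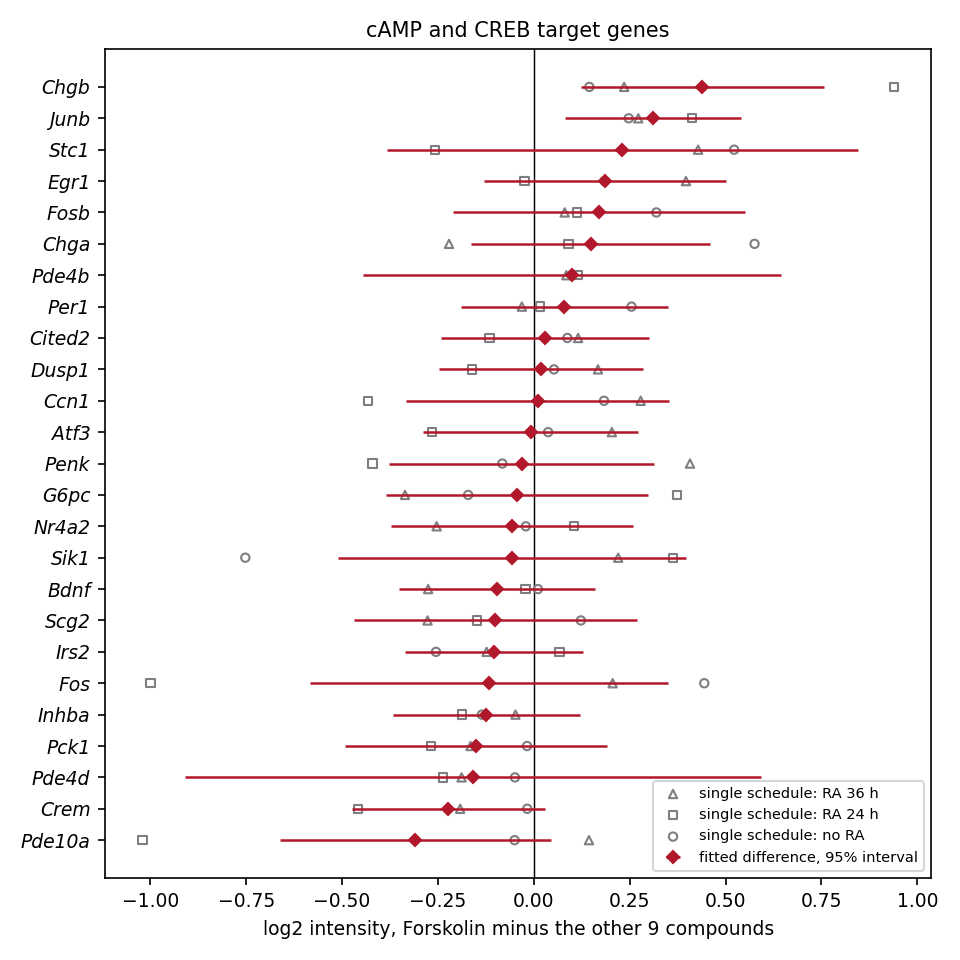
Difference in log2 intensity, Forskolin minus the other 9 compounds (horizontal axis), for the 25 tested cAMP and CREB targets. Red diamonds and bars are the fitted difference with its 95% interval, and grey open symbols the difference within a single schedule. The intervals of Chgb and Junb lie above 0 before adjustment, and those of the other 23 genes include 0.

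Phosphodiesterases break down cAMP, and several are induced by it. Of 16 listed, 10 were tested and none was called or had an unadjusted p under 0.05. Their median difference was 0.07, from -0.31 for Pde10a to 0.26 for Pde4a. Pde10a read 5.05 with Forskolin against 5.48 to 6.47 with the other 9 compounds in the RA 24 h schedule, and lay inside their range in the other schedules. Pde10a was not detected on the Forskolin array of the RA 24 h schedule, so its level there is only a bound. Without the RA 24 h array of Forskolin its difference was 0.05. The classical CREB-induced forms Pde4b and Pde4d differed by 0.10 (-0.44 to 0.64) and -0.16 (-0.91 to 0.59). With RA, Docetaxel gave the highest value of the 10 compounds for both genes. Its Pde4d read 6.86 with RA for 36 h and 8.91 with RA for 24 h, and its Pde4b 7.86 and 7.17. Without Docetaxel among the compared compounds the Forskolin difference was 0.22 for Pde4b and 0.02 for Pde4d, so the sign for Pde4d rests on that compound.

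Upstream of CREB no gene was called either. Of 15 adenylyl cyclase and G protein genes, 11 were tested and 0 had an unadjusted p under 0.05, with Gnas, the stimulatory G protein, at 0.03 (-0.14 to 0.20). Of 20 genes for PKA, its inhibitors and its anchors, 18 were tested. Akap12, an anchor, differed by 0.24 (0.04 to 0.45) and Akap13, another, by -0.32 (-0.60 to -0.05), and the catalytic subunits Prkaca and Prkacb differed by 0.15 (-0.06 to 0.36) and -0.0028 (-0.13 to 0.13). All 11 CREB family, coactivator and salt-inducible kinase genes were tested. Crem, whose short form ICER is a cAMP-induced repressor, differed by -0.22 (-0.47 to 0.03), and its other 4 tested probes, at -0.50 to 0.03, did not agree in sign. Creb1 differed by -0.10 (-0.35 to 0.14), and Atf1, detected on none of the Forskolin arrays and 5 of the others, by -0.36 (-0.71 to -0.02). None of these 40 genes was called.

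**Figure D3:**
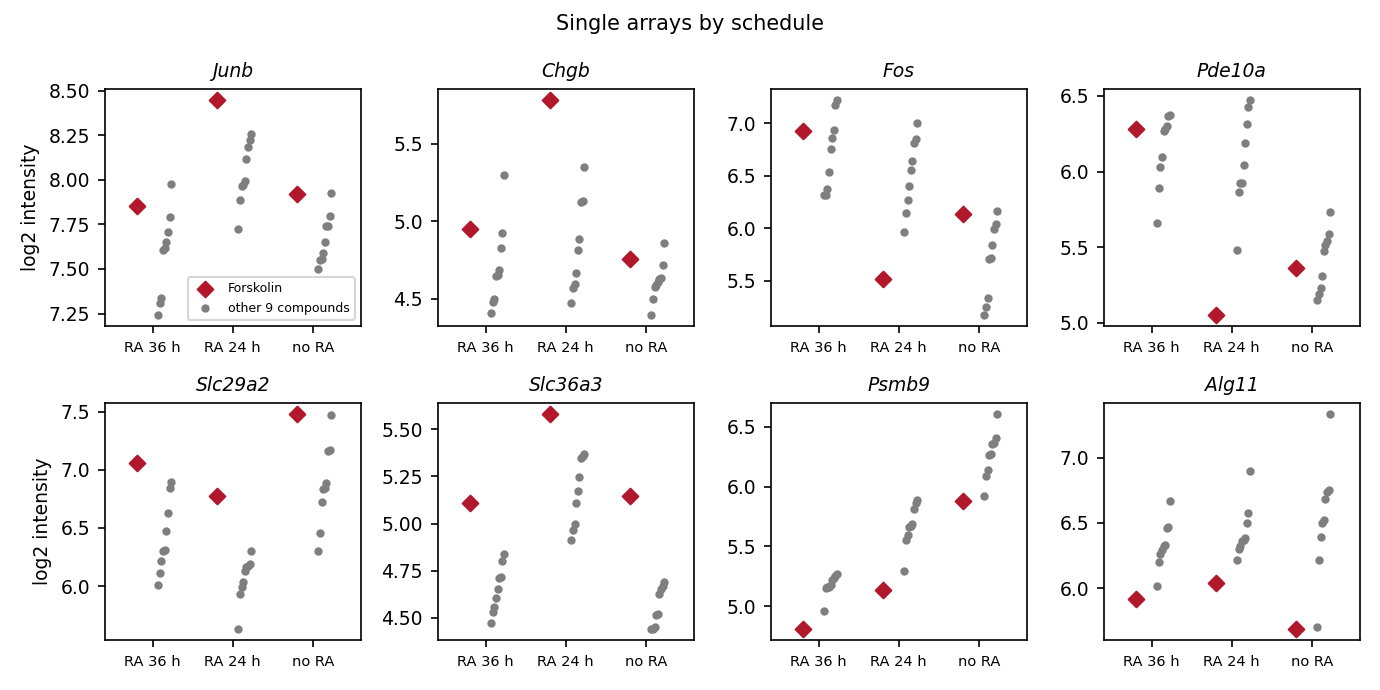
Log2 intensity (vertical axis, a separate scale for each gene) on single arrays in the 3 schedules, with Forskolin as red diamonds and the other 9 compounds as grey points. Fos and Pde10a lie below all others with RA for 24 h alone, and Slc29a2, Slc36a3, Psmb9 and Alg11 lie outside the range of the others in all 3 schedules. Pde10a was not detected with Forskolin and RA for 24 h.

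The genes with the lowest p against the other 9 compounds were Slc36a3, Cyp39a1, Psmb9, Plppr5 and Slc29a2 leaving out unnamed probes and clone names, and none is a CREB target of the list. These genes and those of the next paragraph were chosen after their values were seen. Cyp39a1, an oxysterol hydroxylase, differed by 0.54 (0.29 to 0.80; limma adjusted p = 0.856) and Plppr5, a phospholipid phosphatase-related protein, by 0.56 (0.29 to 0.83; limma adjusted p = 0.9095). Each was detected on 2 Forskolin arrays, with 2 of the other arrays for Cyp39a1 and 4 for Plppr5. Slc29a2, an equilibrative nucleoside transporter, read 7.06 with Forskolin against 6.01 to 6.89 with the other 9 compounds with RA for 36 h. It read 6.78 against 5.63 to 6.31 with RA for 24 h, and 7.48 against 6.30 to 7.47 without RA. Forskolin was above all others in each schedule, by the least without RA. The fitted difference was 0.65 (0.31 to 0.996; limma adjusted p = 0.9999), while a second probe of the gene gave -0.03. Slc36a3, of a family of amino acid transporters, read 5.11, 5.58 and 5.15 with Forskolin in the schedules RA 36 h, RA 24 h and without RA. The other 9 compounds reached at most 4.84, 5.37 and 4.69. Its difference was 0.49 (0.31 to 0.67; limma adjusted p = 0.0863), but it was detected on 1 Forskolin array and 4 of the others.

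On the lower side, Psmb9, a subunit of the immunoproteasome, read 4.81, 5.13 and 5.88 with Forskolin in the same order of schedules. The lowest values of the other 9 compounds were 4.96, 5.30 and 5.92. Its difference was -0.43 (-0.64 to -0.23; limma adjusted p = 0.856), but it was detected on 1 Forskolin array and 23 of the others. Further from the threshold, Alg11, a mannosyltransferase of N-glycan assembly, differed by -0.56 (-0.91 to -0.20), and its second probe by -0.03. Smtn, a protein of the smooth muscle cytoskeleton, differed by 0.37 (0.16 to 0.58), and its other 2 probes by 0.34 and 0.24. Foxh1, a partner of the Smads in Activin and Nodal signalling, differed by 0.42 (0.13 to 0.71), with its second probe at 0.02.

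Hedgehog genes were set against Purmorphamine, an activator of Smoothened, since PKA restrains the pathway that Purmorphamine turns on. The compounds had different doses and lay on different slides in every schedule. Limma called 0 of the 16235 genes (0%) between Forskolin and Purmorphamine, and 501 (3.09%) had an unadjusted p under 0.05. Of 15 Hedgehog genes, 10 were tested, and Gli1, Gas1 and Nkx2-2 were detected on no array. Ptch1, the receptor and a target of the pathway, read 8.51 with Forskolin against 9.13 with Purmorphamine with RA for 36 h. It read 8.23 against 9.28 with RA for 24 h, and 7.70 against 7.14 without RA. Ptch1 was thus lower with Forskolin than with Purmorphamine under RA and higher without it, with a fitted difference of -0.37 (-0.92 to 0.18). Against all 9 other compounds Ptch1 differed by 0.02, and its second probe by 0.22. From Purmorphamine, Nkx6-1, a ventral neural gene, differed by -0.65 (-1.44 to 0.14). Gli2 and Gli3, the transcription factors, differed from it by -0.05 (-0.34 to 0.25) and 0.16 (-0.10 to 0.42).

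Shh, the ligand, differed by 0.82 (-0.05 to 1.68) from Purmorphamine. Without RA it read 7.24 with Forskolin and 4.83 with Purmorphamine, and the other 9 compounds spanned 4.83 to 7.78 there. The intervals of Ptch1, Nkx6-1 and Shh are wide, so these data do not show that the compounds act alike on them. Against all 9 compounds Hhip, a Hedgehog-binding inhibitor and target, differed by 0.26 (0.0060 to 0.52).

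**Figure D4:**
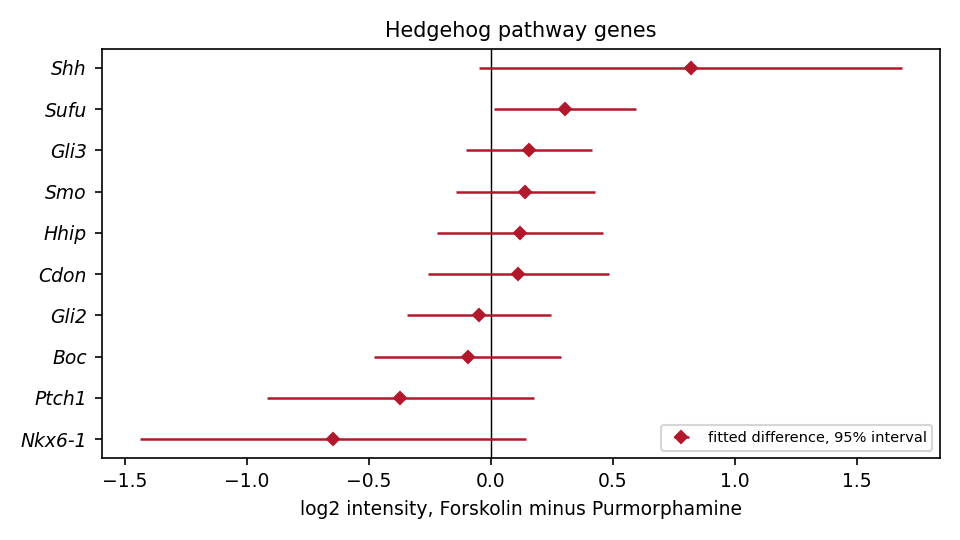
Fitted difference in log2 intensity, Forskolin minus Purmorphamine (horizontal axis), with its 95% interval for the 10 tested Hedgehog genes. Shh is at 0.82 and Nkx6-1 at -0.65, with the widest intervals, and that of Sufu alone leaves out 0 before adjustment.

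The RA response was read in the same arrays. Rarb, a receptor induced by RA, read 11.24, 11.28 and 7.80 with Forskolin in the schedules RA 36 h, RA 24 h and without RA, and averaged 11.10, 11.33 and 7.67 with the other 9 compounds. Hoxa5, a patterning gene, read 12.09, 11.89 and 4.77 with Forskolin, against means of 11.95, 11.98 and 5.55. Pou5f1 (Oct4), the pluripotency factor, read 7.76, 9.46 and 12.49 with Forskolin, against 7.35, 9.38 and 12.32. Nanog read 6.73, 5.81 and 11.67 with Forskolin, against 6.02, 6.002 and 11.44. With RA, Rarb and Hoxa5 lay above and Pou5f1 and Nanog below their levels without RA, on the Forskolin arrays and in the means of the others. Without RA the Hoxa5 probe was not detected on the Forskolin array, so its level there is only a bound.

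None of the 15 RA response, 13 anterior Hox, 9 shared pluripotency or 12 primed epiblast genes tested was called. Their median differences were -0.01, -0.14, 0.0056 and 0.08. The fitted difference of Cyp26a1, which breaks RA down, was 0.11 (-0.26 to 0.47), that of Fgf5 0.15 (-0.31 to 0.60) and that of Otx2 0.22 (-0.35 to 0.80). Fgf5 read 10.84 and Otx2 11.34 on the Forskolin array without RA, and both mark the primed epiblast that the cell type label names. Of 12 listed trophoblast genes, 7 were tested and none was called, with a median difference of 0.0044. Of 10 listed fibroblast genes, 4 were detected on too few arrays to be tested. All 6 tested fibroblast genes had positive differences with a median of 0.16, none at an unadjusted p under 0.05.

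**Figure D5:**
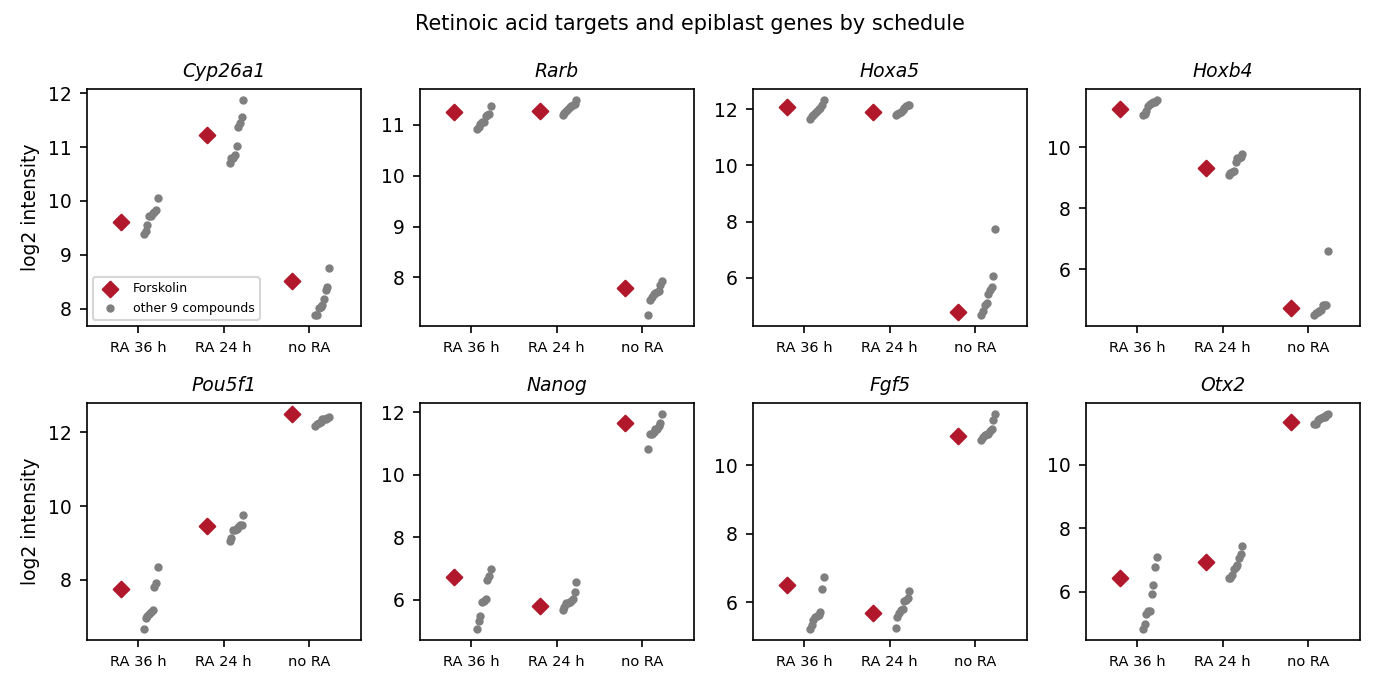
Log2 intensity (vertical axis, a separate scale for each gene) of RA targets, Hox genes and epiblast genes on single arrays by schedule, with Forskolin as red diamonds and the other 9 compounds as grey points. Forskolin lies within or close to the range of the others in each schedule.

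Whether the Forskolin difference itself depended on the schedule was tested as an interaction, with 1 Forskolin array on the side without RA and 1 on each side of the second contrast. With RA against without RA, limma called 0 genes (0%), and 590 (3.63%) had an unadjusted p under 0.05. With RA for 24 h and Forskolin for 36 h against RA for 36 h and Forskolin for 24 h, it called 0 genes (0%), and 1392 (8.57%) had an unadjusted p under 0.05. The RA and Forskolin times change together in the second contrast and cannot be told apart. The distance from a difference to either end of its 95% interval had a median of 0.59 in the first and 0.682 in the second contrast, so a change of 1 on the log2 scale was excluded for only 74.3% and 54.9% of the genes. Gmps, a GMP synthase, had the lowest adjusted p of the second contrast, 0.319, with Forskolin differences of -0.59 with RA for 24 h and 0.61 with RA for 36 h. With intensities floored at 16 and quantile normalised, Gmps was at -1.24 and was called in that contrast. With RA for 36 h the Mock array of the same slide, without Forskolin, read 9.78 for Gmps. Forskolin read 9.84 there and the other 9 compounds at most 9.44. With RA for 24 h the Mock array read 8.75, against 8.40 with Forskolin and 8.65 to 9.34 with the other 9 compounds. What set these levels was not tested. Fos, with -1.20 (-2.23 to -0.18; limma adjusted p = 0.525), and Pde10a, with -1.16 (-1.92 to -0.40; limma adjusted p = 0.447), gave differences on the lower side in that contrast. Chgb gave one on the higher side, 0.70 (-0.03 to 1.43), and 1.22 with the floored intensities, where it was called. Its probe was detected on 6 of 36 arrays. The only Forskolin array among them was that with RA for 24 h, so this difference rests on 1 detected Forskolin value.

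Over all 40 gene lists drawn up for the compounds and the cells, 392 distinct genes were tested and 0 were called. 11 of them had an unadjusted p under 0.05 beside 3.42% of all genes. The list medians lay between -0.14 for anterior Hox and 0.16 for fibroblast genes, 22 of 40 above 0, and the interval excluded a change of 1 on the log2 scale for 391 of the 392 genes. Crabp1, an RA-binding protein at -0.42 (-1.03 to 0.19), was the exception. For weakly detected genes these intervals bound the normalised intensity and not the RNA level. The glutathione synthesis genes Gclc and Gclm, both NRF2 targets, differed by -0.29 (-0.56 to -0.01) and 0.21 (0.02 to 0.40), in opposite directions.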

How the data were processed

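RNA of 36 samples was measured on Illumina bead arrays with 45281 probes. The authors deposited raw intensities, of which 30.2% to 36.6% per array lie below 0, so background appears to have been subtracted. Each intensity has a detection p-value beside it, per the file headers. The authors also deposited log2 values that they made in lumi (variance stabilisation, then robust spline normalisation), per the series' design text. No lumi version is stated.

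Intensities were normalised with neqc in limma over all 36 arrays (offset 16). The filter kept 23999 probes, those detected (p under 0.05) on 3 or more arrays, and each symbol was represented by its brightest probe on average. This left 16235 genes, 12367 with a symbol. Of all probes, 34885 had 1 symbol, 18 several and 10378 none. Differences came from lmFit and eBayes (limma 3.58.1, R 4.3.3) with Benjamini-Hochberg adjustment over all genes at 0.05. The block was the schedule on 30 arrays (26 residual degrees of freedom), or the slide on 15 arrays for the slide mates (11). Interaction fits had 24 and the compound model for Purmorphamine 18. The method was tested on simulated data. Symbols were updated through RefSeq, and promoters are RefSeq windows.

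By rule, the 15 largest called changes each way and the 5 largest of each schedule contrast were to be named, and none was called, so members of the gene lists were named. Other genes were chosen after their values were seen. The comparison, the rule and the lists were chosen with earlier results of these data known. Mock and CM arrays entered the normalisation and the detection filter and no fitted comparison.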

Additional observations from a re-analysis of the deposited data

How the results depend on the processing

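Of 102 counts of called genes recomputed under 23 alternatives, 94 were 0, as in the reported fits. With intensities floored at 16, log2 and quantile normalisation, 1 gene was higher against the other 9 compounds, an unnamed probe detected on 6 of 36 arrays, 24 genes were called in the contrast with RA against without RA and 55 in that of RA 24 h against RA 36 h, Chgb and Gmps among them. With no detection filter 4 genes were higher, Slc36a3, Krtap6-2 and 2 unnamed probes, each detected on at most 5 arrays, and the schedule contrasts had 1 and 16 calls. Most calls in the schedule contrasts under these 2 alternatives were of probes detected on few arrays, such as Chgb on 6 of 36. Gmps was detected on all 36. Why these alternatives gave more calls was not tested. Leaving out 1 Forskolin array gave 0 to 1 genes lower against the slide mates (Mdfic, without the RA 36 h array) and 0 to 1 lower against Purmorphamine (5430416N02Rik, without the RA 24 h array). Leaving out any of the other 9 compounds gave 0 calls against those that were left, Docetaxel included. The slide as a fixed or a random block, each compound with its own term, no schedule block and the authors' deposited log2 values gave 0 calls against the other 9 compounds. In those deposited values differences were smaller, 0.15 for Slc29a2, 0.13 for Junb and 0.06 for Slc36a3. Single genes were followed in the comparison with the other 9 compounds, under the alternatives that kept the same genes tested. Of 969 such values of 51 genes, 932 moved by less than the SD of the 3 schedule differences and 37, in 21 genes, by more. 42 values changed sign, and 0 were called. No pairing beyond the schedule or slide block was possible, because the numbers given to the arrays of a compound name its schedules. The schedule is already a block. Weak probes limit these data, and 6638 of the 16235 genes were not detected on all 30 compound arrays.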
